A study of Mus musculus with 10 samples.

Results

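Brown adipocytes oxidize stored lipid to release heat. In such cells transcript levels were followed for 10 genes of glycerol and triglyceride synthesis: Gpd1, Gpd2, Aqp7, Pck1, Gpam, Agpat2, Agpat3, Lpin1, Dgat1 and Dgat2. The genes were taken by symbol and are 10 of the 24640 rows of a deposited table of RNA sequencing counts. Such counts measure transcripts and not stored fat. All 10 were among the 15212 genes that passed a filter on low counts. The cells came from C57BL/6 mice and formed 5 groups of 2 libraries. In 2 groups the cells had DMSO, the solvent control, for 1 day or for 3 days. In 2 further groups they had the small molecule BML-260, marketed as a Dusp22 phosphatase inhibitor, for 1 day or for 3 days. The fifth group had ISO, which the labels list at 1 day and do not spell out. The labels list no genetic change in any group, and neither doses nor the origin of the cells are given. The labels also do not tell whether the 2 libraries of a group were separate cultures, so every p-value rests on a spread between libraries that could be technical.

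Triglyceride is built by adding fatty acids one after another to glycerol-3-phosphate. Adipocytes make that backbone from the glycolytic intermediate dihydroxyacetone phosphate with Gpd1, and in fasting also from pyruvate through Pck1, a route called glyceroneogenesis. Acyltransferases of the Gpat and Agpat families add the first fatty acids, the lipin phosphatases remove the phosphate, and Dgat1 or Dgat2 adds the last fatty acid. Brown fat fills and empties its droplets quickly, and stored triglyceride feeds its heat production.

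Libraries held 16955918 to 21185675 counts. Levels are given in CPM, the counts scaled to a common library total after TMM normalization, and a gene is said to have risen, fallen or been called where edgeR's quasi-likelihood test gave an adjusted p under 0.05 over all genes tested. Markers of adipocytes were abundant: the summed level of 8 of them, Fabp4 and Adipoq among them, lay between 7950 and 15900 CPM in all libraries. The brown fat markers Cidea (128 to 242 CPM) and Ucp1 (5.10 to 32.9 CPM) were present in each library, and Dio2 had at most 2 counts. Of the 6 brown fat markers tested, 3 rose and 1 fell with BML-260 at 1 day, and 3 rose and 2 fell at 3 days. At 3 days mean Ucp1 was 12.7 CPM with DMSO and 31.8 CPM with BML-260, and mean Prdm16 was 15.95 and 9.47 CPM. The part of these markers in the changes of the 10 genes was not tested. The summed level of the macrophage markers in the table was at most 7.24 CPM, that of the endothelial markers at most 1.42 CPM and that of the skeletal muscle markers at most 1.43 CPM. Preadipocyte and fibroblast markers were present and differed between groups, from 189 to 202 CPM with BML-260 at 1 day up to 502 to 546 CPM with DMSO at 3 days. In whole-culture RNA fewer adipocytes and less RNA per adipocyte cannot be told apart. The ISO libraries, labelled 1 day, had 41.7% of genes called against DMSO at 1 day and 19.9% against DMSO at 3 days, so ISO is set against both below.

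Per length of exon, Gpd1 was the most abundant of the 10 at 1 day of DMSO, with a mean of 506 CPM per kilobase. Dgat1 followed at 171 CPM per kilobase and Agpat2 at 142 CPM per kilobase. Dgat2, Agpat3, Gpd2 and Aqp7 lay between 52.6 and 70.4 CPM per kilobase, and Lpin1 and Gpam at 39.9 and 34.6 CPM per kilobase. Pck1 was the least abundant, at 3.31 CPM per kilobase. Its mitochondrial relative Pck2, outside the 10, stood at 33.5 CPM per kilobase in the same libraries.

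By symbol in GENCODE M21 (GRCm38), Gpd1 lies on chromosome 15 from 99717515 to 99725005, Aqp7 on chromosome 4 from 41033074 to 41048139, Pck1 on chromosome 2 from 173153048 to 173159273 and Lpin1 on chromosome 12 from 16535669 to 16610966. Levels per kilobase use the merged exon length from this annotation. That length joins the exons of all annotated transcripts of a gene, so rankings and ratios between genes depend on the annotation. Exons of Gpd1 share 384 bases with Gm16537 and those of Agpat2 share 64 bases with Egfl7, each on the opposite strand. Whether the counting used strand is not stated, so reads there cannot be assigned to one gene. Those neighbours had 94 to 308 counts (Gm16537) and 124 to 202 counts (Egfl7) per library, against at least 8572 for Gpd1 and 2893 for Agpat2. Exons of Gpd2 share 487 bases with A930012O16Rik, which had 0 to 1 counts per library. Those of Agpat3 share 16 bases with Gm40709, which has no row of counts. Both are also on the opposite strand.

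The 250 bases before the start of transcription are shown for 3 genes, because Pck1 and Aqp7 had the lowest fold changes of the 10 with BML-260 at 3 days and Lpin1 was the one that rose. Sequences are from RefSeq (GRCm38.p6), which matched 7 of the 10 genes, and are written 5′ to 3′ on the strand of the gene. Capitals mark matches on either strand to any of 7 motifs: the TATA box (TATAAA), the CCAAT box (CCAAT), the Sp1 motif (GGGCGG), the core of a cAMP response element (TGACG) and its full form (TGACGTCA), the nuclear receptor motif (AGGTCA) and the E-box (CACGTG). The core is contained in the full form.
Aqp7: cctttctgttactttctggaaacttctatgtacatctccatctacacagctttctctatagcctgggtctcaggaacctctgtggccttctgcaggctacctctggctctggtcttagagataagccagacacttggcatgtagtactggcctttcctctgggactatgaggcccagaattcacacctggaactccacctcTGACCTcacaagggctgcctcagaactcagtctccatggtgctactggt
Pck1: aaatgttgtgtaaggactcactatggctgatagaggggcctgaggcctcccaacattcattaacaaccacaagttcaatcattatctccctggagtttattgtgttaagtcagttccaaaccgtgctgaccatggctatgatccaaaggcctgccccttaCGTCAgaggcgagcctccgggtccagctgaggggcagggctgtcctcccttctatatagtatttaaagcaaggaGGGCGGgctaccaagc
Lpin1: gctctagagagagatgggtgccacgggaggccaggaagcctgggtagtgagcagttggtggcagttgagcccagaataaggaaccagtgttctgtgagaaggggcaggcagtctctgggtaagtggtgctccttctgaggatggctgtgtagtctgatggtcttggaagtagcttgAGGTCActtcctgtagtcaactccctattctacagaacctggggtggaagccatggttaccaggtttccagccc
The Aqp7 window (chr4:41048137-41048386, minus strand) is the upstream one of 2 annotated starts. It holds AGGTCA, which PPAR and other nuclear receptors bind, on the opposite strand 49 bases before the start. The Lpin1 window (chr12:16610967-16611216, minus strand) holds the same motif 74 bases before the start. In the Pck1 window (chr2:173152823-173153072, plus strand) TGACG lies on the opposite strand 90 bases before the start, and GGGCGG lies 16 bases before it. Such matches are frequent: of 32851 promoter windows 14% hold AGGTCA, 17.8% TGACG and 32.7% GGGCGG. The shares for the other motifs were 12.4% for TATAAA, 33.8% for CCAAT, 1.55% for TGACGTCA and 6.02% for CACGTG.

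**Figure D1:**
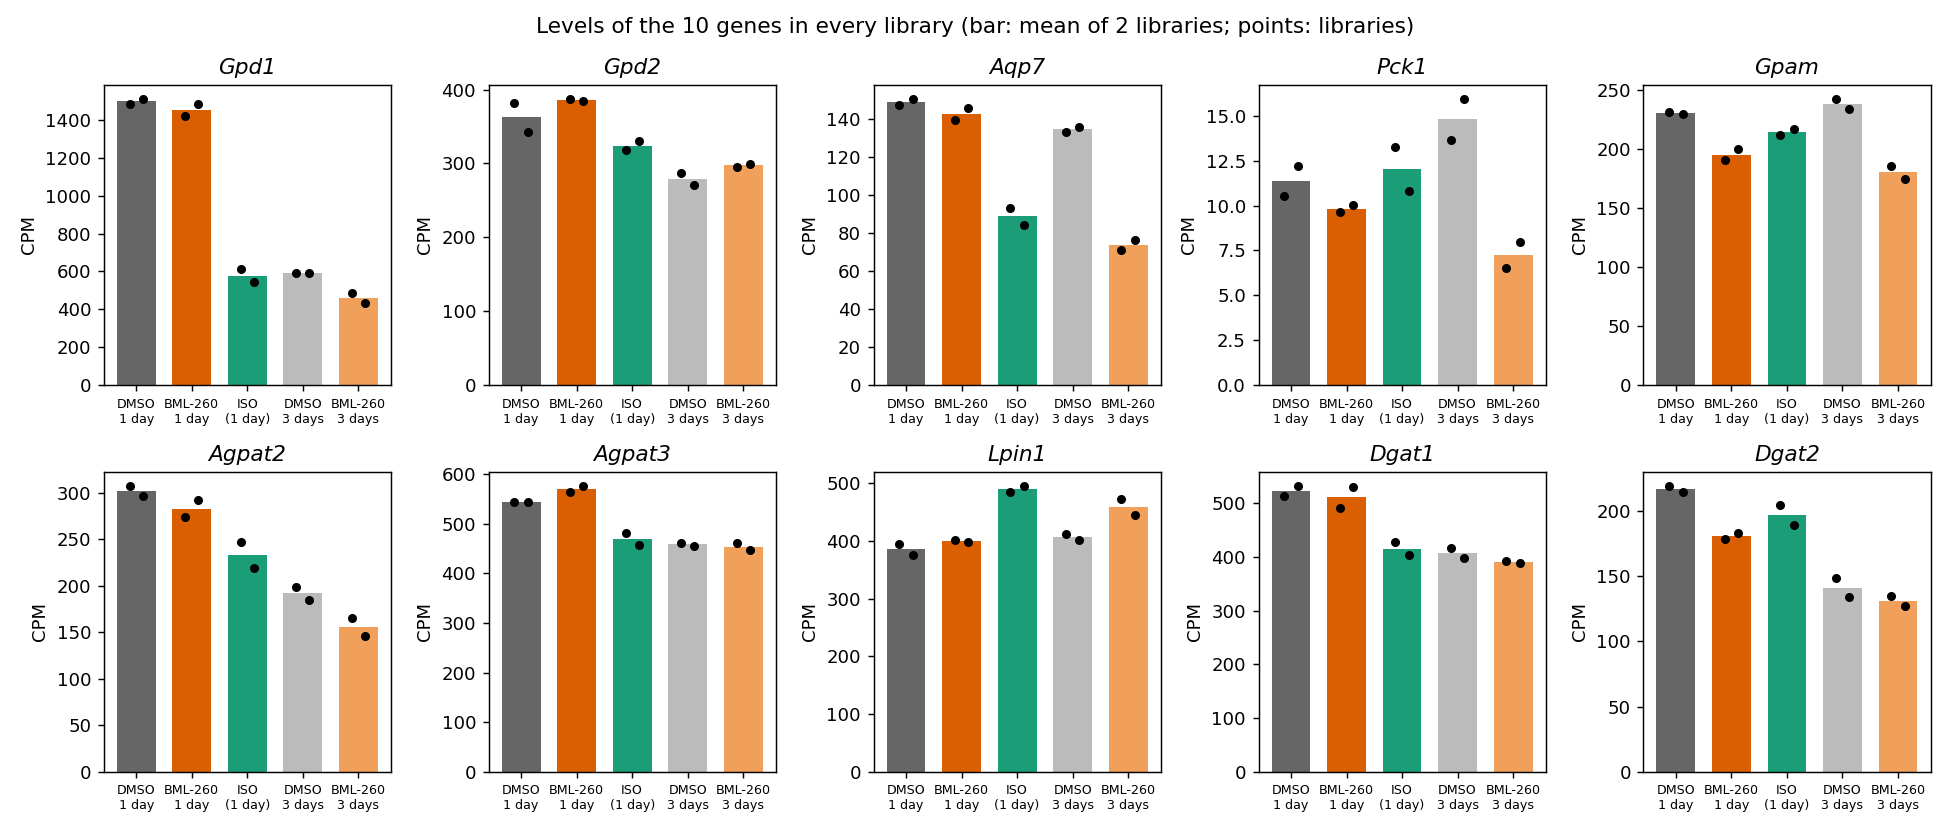
CPM of each of the 10 genes (vertical axes, starting at 0) in DMSO and BML-260 at 1 and 3 days and in ISO. Bars are means of 2 libraries and points are the libraries. Gpd1 lies at or above 1422 CPM in the 4 libraries of DMSO and BML-260 at 1 day. It lies at or below 612 CPM in the other 6. The means of all genes but Gpd2 and Lpin1 are lowest with BML-260 at 3 days, with libraries that overlap the next group for Agpat3 and Dgat2.

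After 1 day of BML-260 Gpam and Dgat2, enzymes of the first and last acylation, fell, and the other 8 genes were not called. That is 2 of 10 genes called, against 17.9% of all genes, of which 9.32% were higher and 8.62% lower. The median log2 fold change of the 10 was -0.05, against -0.0010 for all genes tested. Without DMSO 1 day replicate 1 Gpd2 was called as well, at 0.17 (adjusted p = 0.029). The count over all genes depended on single libraries: it was 2728 with all of them and 1235 when DMSO 1 day replicate 2 was left out. For BML-260 at 1 day, leaving out replicate 1 gave 1748 and leaving out replicate 2 gave 1810. The authors' deposited table for this comparison lists Gpam at a log2 fold change of -0.23 and Dgat2 at -0.25, and none of the other 8. Marker levels also moved in this comparison: preadipocyte and fibroblast markers summed to 285 to 299 CPM with DMSO and 189 to 202 CPM with BML-260, and smooth muscle and pericyte markers to 179 CPM and 108 to 118 CPM. The adipocyte markers summed to 11700 to 11900 CPM and 15300 to 15900 CPM, with 3 of the 8 higher, Fabp4 among them, and 3 lower (median log2 fold change -0.12). Their part in the calls of Gpam and Dgat2 was not tested.

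After 3 days of BML-260 Pck1, Aqp7, Gpam, Gpd1 and Agpat2 fell and Lpin1 rose, so that 6 of 10 genes were called, against 35.5% of all genes (17.3% higher, 18.3% lower). The median log2 fold change was -0.20 for the 10 and -0.02 for all genes tested. The authors' deposited table for 3 days lists the same 6 genes in the same directions, with Aqp7 at a log2 fold change of -0.83 and Pck1 at -0.81. Markers of other cells moved with this comparison: the summed preadipocyte and fibroblast level was 502 to 546 CPM with DMSO and 293 to 303 CPM with BML-260, and the smooth muscle and pericyte level 226 to 236 CPM and 101 to 111 CPM. The summed adipocyte level was 8540 to 8770 CPM with DMSO and 8660 to 8950 CPM with BML-260, but more than any other marker Fabp4 makes up that sum, and single markers moved apart. Of the 8 adipocyte markers 4 fell and 2 rose (median log2 fold change -0.28). Adipoq fell from a mean of 937 to 448 CPM, Cebpa from 211 to 110 CPM, Lipe from 485 to 331 CPM and Pparg from 534 to 389 CPM, while Fabp4 rose from 4599 to 5688 CPM and Cidec from 310 to 362 CPM. The part of these markers in the changes of the 10 genes was not tested.

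The effect of BML-260 at 3 days was lower than that at 1 day for Aqp7, Pck1 and Gpd1 by the test of the difference, which called 3 of 10 genes, all of them lower, against 8.44% of all genes (3.93% higher, 4.51% lower). The median difference of log2 fold changes was -0.12 for the 10 and -0.02 for all genes tested. Of the 8 adipocyte markers 6 were called lower and 0 higher by the same test (median -0.37). Over all 28 cell type markers tested 10 were lower and 0 higher. Their part in the calls of Aqp7, Pck1 and Gpd1 was not tested. The count over all genes was 1284 with all libraries and 659 when DMSO 1 day replicate 2 was left out. Leaving out DMSO 3 days replicate 1 gave 678, its replicate 2 gave 794, and BML-260 3 days replicate 1 gave 760.

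With ISO 7 of the 10 genes stood below DMSO at 1 day and 1, Lpin1, above it. That is 8 of 10, against 41.7% of all genes (21.4% higher, 20.3% lower). The median log2 fold change was -0.19 for the 10 and -0.0036 for all genes tested. Fewer of the 10 were called in each fit that left out 1 library of either group. Set against DMSO at 3 days, a comparison added after the data were seen, ISO had 4 genes higher (Gpd2, Agpat2, Lpin1 and Dgat2), 2 lower (Aqp7 and Gpam) and 4 not called, against 19.9% of all genes (10.6% higher, 9.24% lower). With DMSO alone 7 genes fell from 1 to 3 days and Pck1 rose, 8 of 10 against 34.9% of all genes (18.1% higher, 16.8% lower). The median was -0.30 for the 10 and 0.01 for all genes tested. Here too fewer of the 10 were called in each fit that left out 1 library. ISO against DMSO at 1 day, time in DMSO and BML-260 at 1 day share the DMSO 1 day libraries, so their likeness is not a result. For the ISO group treatment and any difference in time in culture cannot be told apart. The preadipocyte and fibroblast markers also moved with them, at 285 to 299 CPM with DMSO at 1 day, 452 to 481 CPM with ISO and 502 to 546 CPM with DMSO at 3 days. The adipocyte markers summed to 11700 to 11900 CPM, 7950 to 8350 CPM and 8540 to 8770 CPM in the same order, and 7 of the 8 fell both with ISO and over time. Their part in the results was not tested.

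**Figure D2:**
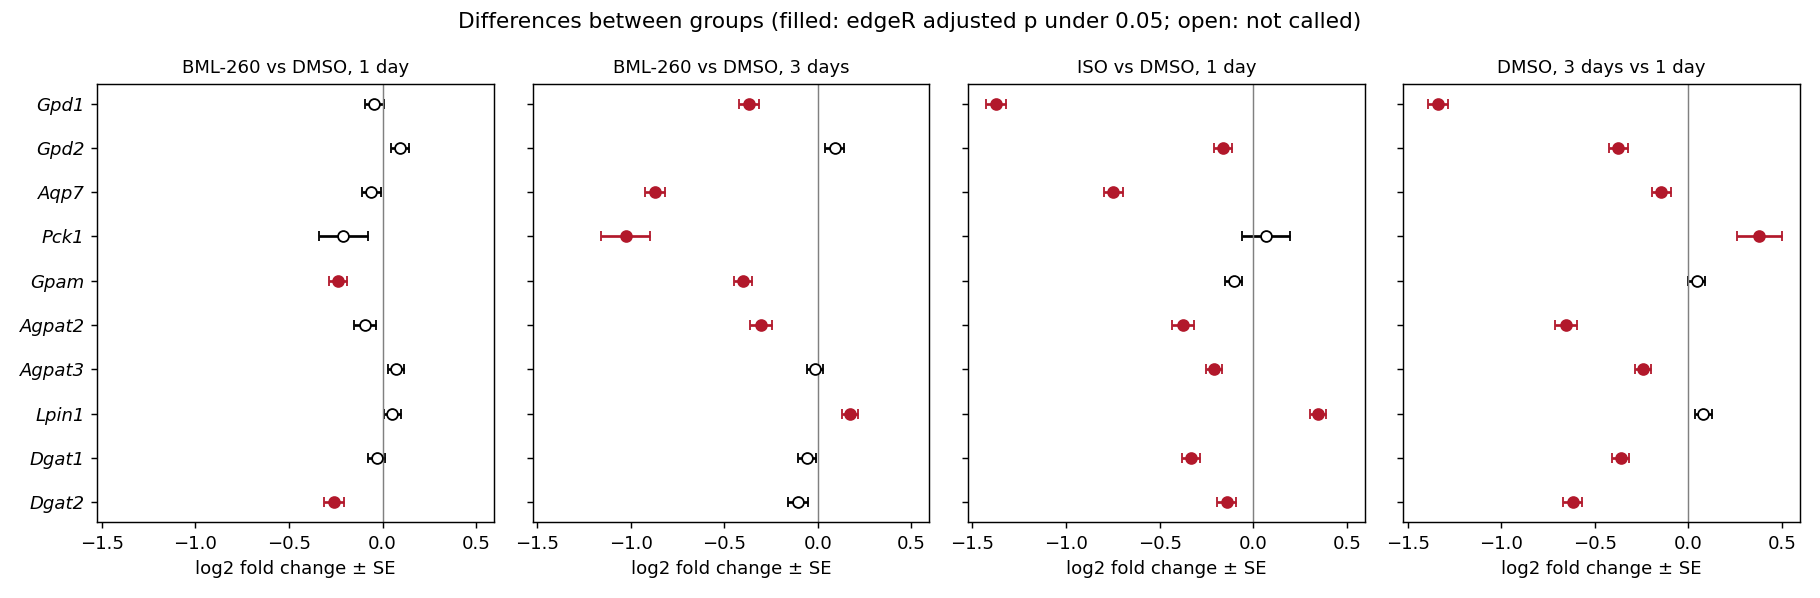
Log2 fold change (horizontal axis) of each gene in 4 comparisons, with the standard error from edgeR's test. Filled points passed at adjusted p under 0.05 and open points did not. Pck1 and Aqp7 lie farthest left for BML-260 at 3 days, at -1.03 and -0.87, and Gpd1 for ISO and for time in DMSO, at -1.37 and -1.34.

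Gpd1 is the cytosolic glycerol-3-phosphate dehydrogenase, which makes the backbone of triglyceride with NADH. Its level was 1487 and 1510 CPM with DMSO and 1422 and 1485 CPM with BML-260 at 1 day. It was 612 and 545 CPM with ISO, 594 and 590 CPM with DMSO at 3 days and 487 and 431 CPM with BML-260 at 3 days. The 4 libraries of DMSO and BML-260 at 1 day thus lay far above the other 6, and ISO, labelled 1 day, overlapped DMSO at 3 days. In DMSO Gpd1 fell 2.5-fold over time (log2 fold change -1.34, SE 0.05, adjusted p = 8.0e-16). ISO against DMSO at 1 day was at -1.37 (SE 0.05, adjusted p = 2.3e-16) and against DMSO at 3 days at -0.03 (adjusted p = 0.71). BML-260 stood at -0.04 at 1 day (95% interval -0.15 to 0.06) and lowered Gpd1 at 3 days by 22.4% (log2 fold change -0.37, SE 0.05, adjusted p = 6.1e-06). The difference between these effects was -0.32 (SE 0.08, adjusted p = 0.0075). It was lost without BML-260 3 days replicate 2 (-0.24, adjusted p = 0.072) and without DMSO 3 days replicate 1 (-0.29, adjusted p = 0.059), and by DESeq2 (-0.31, adjusted p = 0.076).

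Gpd2 is the mitochondrial glycerol-3-phosphate dehydrogenase, which hands electrons from glycerol-3-phosphate to the respiratory chain and is abundant in brown fat. It measured 382 and 343 CPM with DMSO and 387 and 385 CPM with BML-260 at 1 day, 318 and 330 CPM with ISO, 288 and 271 CPM with DMSO at 3 days and 295 and 299 CPM with BML-260 at 3 days. Every library of DMSO and BML-260 at 1 day was above every library of the other groups, as for Gpd1, but by far less. Gpd2 fell over time in DMSO by 0.37 on the log2 scale (SE 0.05, adjusted p = 1.1e-06). BML-260 gave 0.09 at 1 day (95% interval -0.01 to 0.19) and 0.09 at 3 days (95% interval -0.01 to 0.19), neither of them called. ISO was at -0.16 against DMSO at 1 day (adjusted p = 0.010) and at 0.21 against DMSO at 3 days (adjusted p = 0.0025). The first of these was lost without DMSO 1 day replicate 1 (-0.08, adjusted p = 0.27) and without ISO replicate 1 (-0.13, adjusted p = 0.078).

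Pck1, the cytosolic phosphoenolpyruvate carboxykinase of glyceroneogenesis, was the gene with the fewest counts, 119 to 309 per library. Its level was 10.5 and 12.2 CPM with DMSO at 1 day, 9.64 and 10.03 CPM with BML-260 at 1 day and 13.3 and 10.8 CPM with ISO. It was 13.7 and 15.9 CPM with DMSO at 3 days and 6.53 and 7.95 CPM with BML-260 at 3 days. The 2 libraries of BML-260 at 3 days were below all others, and those of DMSO at 3 days above all others. BML-260 at 3 days halved it (0.491 of the DMSO level, log2 fold change -1.03, SE 0.13, adjusted p = 6.2e-07). At 1 day it stood at -0.21 (95% interval -0.48 to 0.06, adjusted p = 0.30). The effects differed by -0.82 (SE 0.19, adjusted p = 0.0063), or by -0.68 (adjusted p = 0.054) without DMSO 3 days replicate 2. The rise in DMSO over time, 0.38 (SE 0.12, adjusted p = 0.017), was lost without DMSO 3 days replicate 2 (0.26, adjusted p = 0.23), without DMSO 1 day replicate 1 (0.28, adjusted p = 0.17) and by DESeq2 (0.38, adjusted p = 0.071). ISO was at 0.07 against DMSO at 1 day (adjusted p = 0.70), with overlapping libraries.

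Aqp7 is the aquaglyceroporin of fat cells, the channel through which glycerol leaves or enters them. It was at 147 and 150 CPM with DMSO at 1 day, at 140 and 146 CPM with BML-260 at 1 day and at 133 and 136 CPM with DMSO at 3 days. The level was 93.3 and 84.3 CPM with ISO and 70.8 and 76.4 CPM with BML-260 at 3 days. So ISO and BML-260 at 3 days lay well below the remaining groups. BML-260 at 3 days gave 0.548 of the DMSO level (log2 fold change -0.87, SE 0.05, adjusted p = 2.0e-12), and at 1 day it was at -0.06 (95% interval -0.17 to 0.04). The difference of -0.81 (SE 0.07, adjusted p = 1.9e-07) was called in every setting tried. Among the 10 Aqp7 is the gene called below both DMSO groups with ISO, at -0.75 against 1 day (SE 0.05, adjusted p = 1.7e-11) and at -0.60 against 3 days (SE 0.05, adjusted p = 1.0e-08). Its small fall over time in DMSO, -0.14 (SE 0.05, adjusted p = 0.029), was lost whichever of the 4 libraries was left out, for example at -0.13 without DMSO 1 day replicate 2 (adjusted p = 0.14), and by DESeq2.

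Gpam encodes the mitochondrial glycerol-3-phosphate acyltransferase, which attaches the first fatty acid. It was at 231 and 230 CPM with DMSO and 191 and 200 CPM with BML-260 at 1 day. At 3 days it was at 242 and 234 CPM with DMSO and 186 and 175 CPM with BML-260, and with ISO at 212 and 217 CPM. All 4 BML-260 libraries were below the other 6. The log2 fold change with BML-260 was -0.24 at 1 day (SE 0.05, adjusted p = 0.00055) and -0.40 at 3 days (SE 0.05, adjusted p = 1.4e-07), and it is the gene of the 10 that fell at both times. The difference between times, -0.16, was not called (95% interval -0.30 to -0.03, adjusted p = 0.13). Over time in DMSO it was at 0.05 (adjusted p = 0.48). ISO against DMSO at 1 day was at -0.10 (adjusted p = 0.071), but passed with upper-quartile scaling, at -0.16 (adjusted p = 0.0084).

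Agpat2, the lysophosphatidate acyltransferase whose loss in people and mice removes most adipose tissue, adds the next fatty acid. It measured 307 and 296 CPM with DMSO and 274 and 292 CPM with BML-260 at 1 day, 247 and 219 CPM with ISO, 199 and 185 CPM with DMSO at 3 days and 165 and 146 CPM with BML-260 at 3 days. The 5 groups formed a descending order with no overlap between neighbours. In DMSO it fell by 0.65 over time (SE 0.06, adjusted p = 2.1e-09), and BML-260 at 3 days was lower still by 18.9% (log2 fold change -0.30, SE 0.06, adjusted p = 0.00027). At 1 day BML-260 was at -0.09 (95% interval -0.21 to 0.03), and the difference between times was not called (-0.21, adjusted p = 0.12) except without BML-260 3 days replicate 1 (-0.30, adjusted p = 0.044). ISO lay between the DMSO groups, at -0.38 against 1 day (adjusted p = 7.6e-06) and at 0.28 against 3 days (adjusted p = 0.0013).

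Agpat3, a relative of Agpat2, varied least among the 10 on the log2 scale, by 0.33 between its highest and lowest group mean. It was at 544 and 543 CPM with DMSO and 565 and 576 CPM with BML-260 at 1 day. The 6 libraries of ISO, DMSO at 3 days and BML-260 at 3 days overlapped, between 447 and 483 CPM. Agpat3 fell over time in DMSO by 0.24 (SE 0.04, adjusted p = 6.5e-05) and stood below DMSO at 1 day with ISO by the same test (-0.21, adjusted p = 0.00027). With BML-260 it was at 0.07 at 1 day (95% interval -0.02 to 0.16) and at -0.01 at 3 days (95% interval -0.10 to 0.07).

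Lpin1, a lipin, removes the phosphate from phosphatidate to give diacylglycerol and also acts in the nucleus as a coactivator. It was the one gene of the 10 above DMSO with both BML-260 at 3 days and ISO. The level was 395 and 376 CPM with DMSO and 402 and 398 CPM with BML-260 at 1 day, and 413 and 402 CPM with DMSO and 473 and 445 CPM with BML-260 at 3 days. ISO had the highest values, 485 and 496 CPM. By the test Lpin1 rose by 12.7% with BML-260 at 3 days (log2 fold change 0.17, SE 0.04, adjusted p = 0.0035), but without BML-260 3 days replicate 1 it was at 0.13 and not called (adjusted p = 0.085). With ISO it stood 0.35 above DMSO at 1 day (SE 0.04, adjusted p = 5.3e-07) and 0.27 above DMSO at 3 days (adjusted p = 9.1e-05). BML-260 at 1 day was at 0.05 (95% interval -0.04 to 0.15).

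Dgat1 and Dgat2 are unrelated enzymes that both join the last fatty acid to diacylglycerol. Dgat1 was at 513 and 532 CPM with DMSO and 491 and 531 CPM with BML-260 at 1 day, with overlapping libraries. It was at 427 and 403 CPM with ISO, 416 and 397 CPM with DMSO at 3 days and 392 and 389 CPM with BML-260 at 3 days. Dgat1 fell over time in DMSO (log2 fold change -0.36, SE 0.05, adjusted p = 9.1e-07) and was lower with ISO than with DMSO at 1 day (-0.33, adjusted p = 2.2e-06), but not than at 3 days (0.03, adjusted p = 0.71). With BML-260 it was at -0.03 at 1 day (95% interval -0.13 to 0.06) and at -0.06 at 3 days (95% interval -0.15 to 0.04).

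Dgat2 was at 219 and 215 CPM with DMSO and 179 and 184 CPM with BML-260 at 1 day, and at 204 and 189 CPM with ISO. At 3 days it was at 149 and 134 CPM with DMSO and 135 and 128 CPM with BML-260, where the libraries overlapped. Dgat2 fell over time in DMSO by 0.62 (SE 0.05, adjusted p = 8.1e-10). BML-260 lowered it by 16.5% at 1 day (log2 fold change -0.26, SE 0.05, adjusted p = 0.00072) and was at -0.11 at 3 days (95% interval -0.22 to 0.00, adjusted p = 0.13). That value was -0.14 and called with upper-quartile scaling (adjusted p = 0.046), and 0.00 without DMSO 3 days replicate 1. The difference between times, 0.15, was not called (adjusted p = 0.21). ISO was at -0.14 against DMSO at 1 day (adjusted p = 0.029), a call lost without DMSO 1 day replicate 1 (-0.12, adjusted p = 0.14), DMSO 1 day replicate 2 (-0.16, adjusted p = 0.059) or ISO replicate 2 (-0.08, adjusted p = 0.33). The call against DMSO at 1 day was also lost by DESeq2 (-0.14, adjusted p = 0.068). Against DMSO at 3 days ISO was at 0.48 (SE 0.05, adjusted p = 3.7e-07).

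BML-260 and ISO, both labelled 1 day, differed for 8 of the 10 genes, against 44.4% of all genes (21.6% higher, 22.8% lower), with a median log2 fold change of 0.27 for the 10 and 0.0002 for all genes tested. Adipocyte markers summed to 15300 to 15900 CPM with BML-260 and 7950 to 8350 CPM with ISO. Of these 8 markers 6 were called higher with BML-260 and 1 lower. Preadipocyte and fibroblast markers summed to 189 to 202 CPM and 452 to 481 CPM, with 5 of the 6 tested lower and 0 higher. Their part in these differences was not tested. Treatment and any difference in time in culture cannot be told apart for ISO. Gpd1 was 2.51-fold and Aqp7 1.61-fold higher with BML-260, and Gpd2, Agpat2, Agpat3 and Dgat1 were higher by 0.25 to 0.30 on the log2 scale. Lpin1 was lower with BML-260 (-0.29) and so was Gpam (-0.13, adjusted p = 0.020). The Gpam call was lost without BML-260 1 day replicate 1 (-0.10, adjusted p = 0.17) and without ISO replicate 2 (-0.12, adjusted p = 0.11), and with upper-quartile scaling (-0.10, adjusted p = 0.097). Without ISO replicate 2 Pck1 (-0.43, adjusted p = 0.025) and Dgat2 (-0.18, adjusted p = 0.026) were called, and they were not with all libraries (-0.28 and -0.12).

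Other genes of the pathway were taken from a list of 25, of which 24 were in the table and 21 were tested. Aqp9 was not analysed here, and Aqp3, Gpat2 and Acsl6 had at most 9 counts in any library. Glycerol kinase, Gk, listed under its older symbol Gyk, the enzyme of the direct route from glycerol to glycerol-3-phosphate, had 5 to 17 counts per library. In BML-260 at 1 day 2 of the 21 rose and 1 fell (median -0.03). At 3 days 6 rose and 3 fell (median 0.04), and with ISO 6 rose and 6 fell against DMSO at 1 day (median -0.06). The difference between the BML-260 effects called 2, both upward. Over time in DMSO 4 rose and 8 fell. The shares of all genes called and the medians of all genes are those given above. Of the 12 called with ISO, 8 were not called against DMSO at 3 days: Gk5, Gpd1l, Pcx, Gpat4, Agpat4, Agpat5, Lpin3 and Acsl4. Lpin2 (0.37), Acsl3 (0.30), Acsl1 (0.29) and Pgp (0.48) were called against it, all higher.

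Among the phosphatases, Lpin2 rose, as Lpin1 did, with BML-260 at 3 days, from 38.6 and 37.6 CPM to 53.3 and 58.7 CPM (log2 fold change 0.56, SE 0.07, adjusted p = 2.6e-07), and was at 49.0 and 49.5 CPM with ISO. Lpin3 was at 11.1 and 11.5 CPM with DMSO at 3 days and 8.77 and 9.41 CPM with BML-260 (-0.31, adjusted p = 0.045), a call lost in each fit that left out 1 library (adjusted p up to 0.21). The call was also lost by DESeq2 (-0.29, adjusted p = 0.20), with RLE factors (-0.29, adjusted p = 0.059) and without the filter (-0.31, adjusted p = 0.065). With ISO Lpin3 was at 11.7 and 11.4 CPM, above 5.53 and 6.66 CPM with DMSO at 1 day (0.91, adjusted p = 2.2e-06). Against DMSO at 3 days it was at 0.03 with ISO and not called (adjusted p = 0.88).

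Among the long-chain acyl-CoA synthetases, which activate fatty acids, Acsl1 and Acsl4 moved apart. Acsl1, the main form of adipocytes, was at 442 and 416 CPM with DMSO at 1 day and fell with BML-260 at 3 days from 310 and 294 CPM to 247 and 237 CPM (-0.32, SE 0.05, adjusted p = 1.2e-05). Acsl4, which prefers arachidonate, rose at both times, by 0.31 at 1 day (adjusted p = 0.00043) and by 0.47 at 3 days (adjusted p = 1.9e-07). Acsl3 rose at 3 days (0.22, adjusted p = 0.0046). With ISO against DMSO at 1 day Acsl1 was at -0.22, Acsl3 at 0.54 and Acsl4 at 0.49, all called. The fall of Acsl1 at 1 day, -0.15 (adjusted p = 0.032), was lost without BML-260 1 day replicate 1 (-0.13), BML-260 1 day replicate 2 (-0.16) or DMSO 1 day replicate 1 (-0.10).

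Among the acyltransferases Gpat3, listed as Agpat9, rose with BML-260 at 1 day (0.28, adjusted p = 0.030), a call lost in 3 of 4 fits that left out 1 library, at 0.17 without BML-260 1 day replicate 1, 0.30 without DMSO 1 day replicate 1 and 0.26 without DMSO 1 day replicate 2. Gpat4 fell at 3 days (-0.24, adjusted p = 0.034) and with ISO (-0.26, adjusted p = 0.017). The first call was lost in each of 4 such fits (adjusted p from 0.081 to 0.25), the second in 3, at -0.27 without DMSO 1 day replicate 1, -0.25 without DMSO 1 day replicate 2 and -0.14 without ISO replicate 2. A separate row under the older symbol of Gpat4, Agpat6, held at most 19 counts. DESeq2 did not call Gpat3 with BML-260 at 1 day (0.28, adjusted p = 0.076). Nor did it call Gpat4 with BML-260 at 3 days (-0.23, adjusted p = 0.14) or with ISO against DMSO at 1 day (-0.25, adjusted p = 0.074). Agpat5 rose with BML-260 at 3 days (0.26, adjusted p = 0.0025) and stood lower with ISO (-0.24, adjusted p = 0.0046, lost without ISO replicate 1 at -0.20). Agpat4 was higher with ISO (0.32, adjusted p = 0.0084), not so without DMSO 1 day replicate 1 (0.24) or ISO replicate 1 (0.25). Annotated exons of Gpat3, Agpat5, Acsl1 and Acsl3 overlap those of other genes.

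The genes of glycerol-3-phosphate supply and glycerol handling include Pgp, which can remove the phosphate from glycerol-3-phosphate and so does not supply it. Pgp was at 19.2 and 21.4 CPM with DMSO at 3 days and rose to 31.4 and 32.5 CPM with BML-260 (0.66, SE 0.12, adjusted p = 0.00013). At 1 day it was at 37.4 and 41.6 CPM with DMSO and 26.2 and 37.2 CPM with BML-260, the latter libraries lying far apart (-0.31, not called). Pgp was lower with ISO than with DMSO at 1 day (-0.48, adjusted p = 0.0012; 0.065 by DESeq2), and higher than with DMSO at 3 days (0.48, adjusted p = 0.0067). Gk5, a relative of glycerol kinase, rose with BML-260 at 3 days (0.28, adjusted p = 0.0047), but not without BML-260 3 days replicate 2 (0.17, adjusted p = 0.18), and with ISO (0.38, adjusted p = 0.00035). Pcx, the pyruvate carboxylase that supplies oxaloacetate to Pck1, and the dehydrogenase Gpd1l were lower with ISO than with DMSO at 1 day (-0.35 and -0.34) and were not called with BML-260. Pck2 was called in none of these comparisons and lay between 248 and 262 CPM in all libraries.

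**Figure D3:**
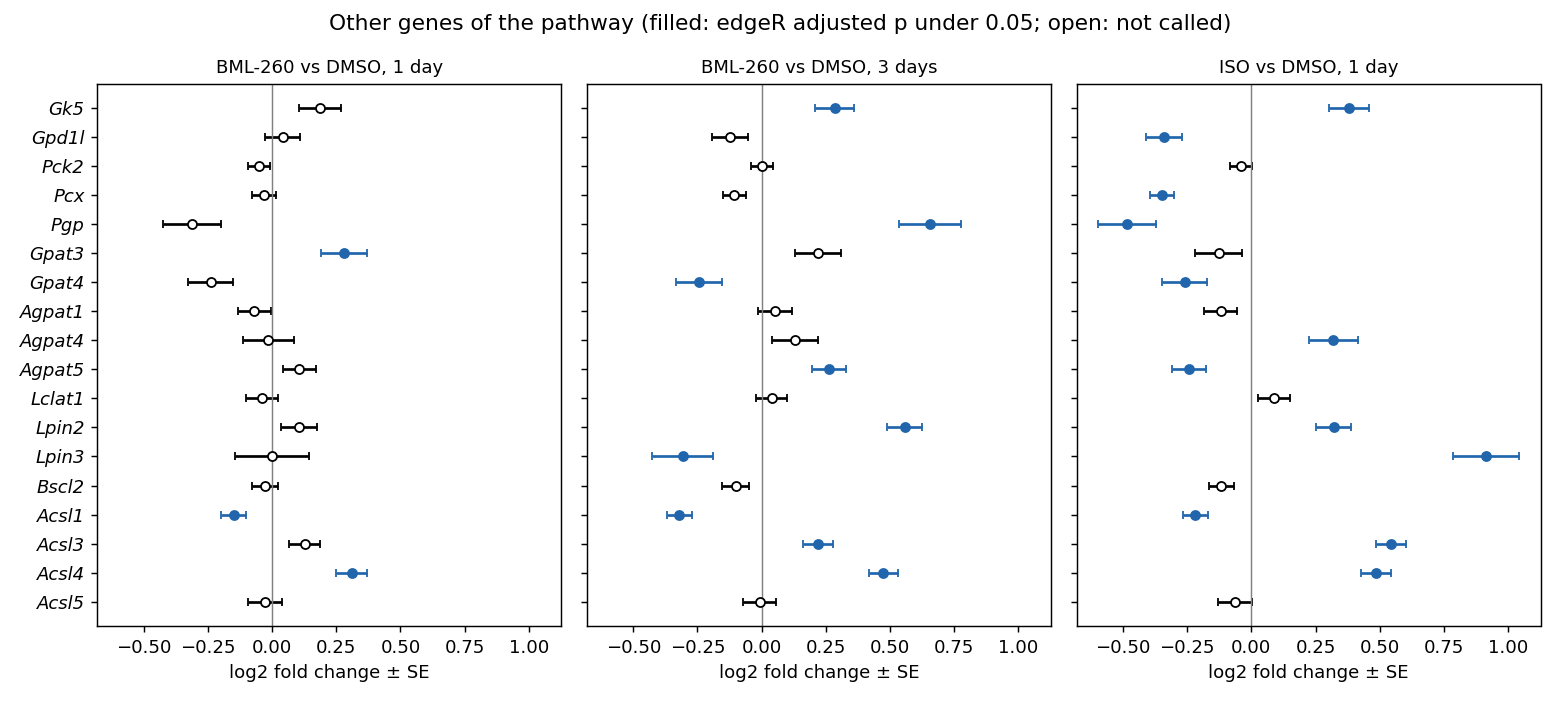
Log2 fold change with its standard error (horizontal axis) of 18 other genes of the pathway in 3 comparisons. Filled points passed edgeR's test at adjusted p under 0.05. Gk, Mogat1 and Mogat2, tested on at most 20 counts per library, are left out. Lpin2, Pgp and Acsl4 are the rightmost for BML-260 at 3 days, at 0.56, 0.66 and 0.47.

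The genes most like Gpd1 and Pck1, the members with the largest range over the groups (1.71 and 1.02 on the log2 scale), were sought among 9014 genes of at least 10 CPM by the root mean square difference of centred log2 CPM over the 5 group means. For Gpd1 they were G0s2, an inhibitor of the lipase Pnpla2 (0.10), Id1, an inhibitor of helix-loop-helix transcription factors (0.11), and Thrsp, a lipogenic protein (0.14). G0s2 went from 463 ± 27 CPM (SD, n = 2) with DMSO at 1 day to 163 ± 8.0 CPM at 3 days, 156 ± 14 CPM with ISO and 122 ± 26 CPM with BML-260 at 3 days. For Pck1 they were the growth factor gene Igf1 (0.06), the receptor gene Tlr4 (0.09) and the transcription factor gene Irf4 (0.09). Igf1 was at 26.5 ± 0.33 CPM with DMSO and 13.7 ± 0.90 CPM with BML-260 at 3 days (SD, n = 2 each). With 5 group means, some close profiles will be found among this many genes whatever their relation.

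**Figure D4:**
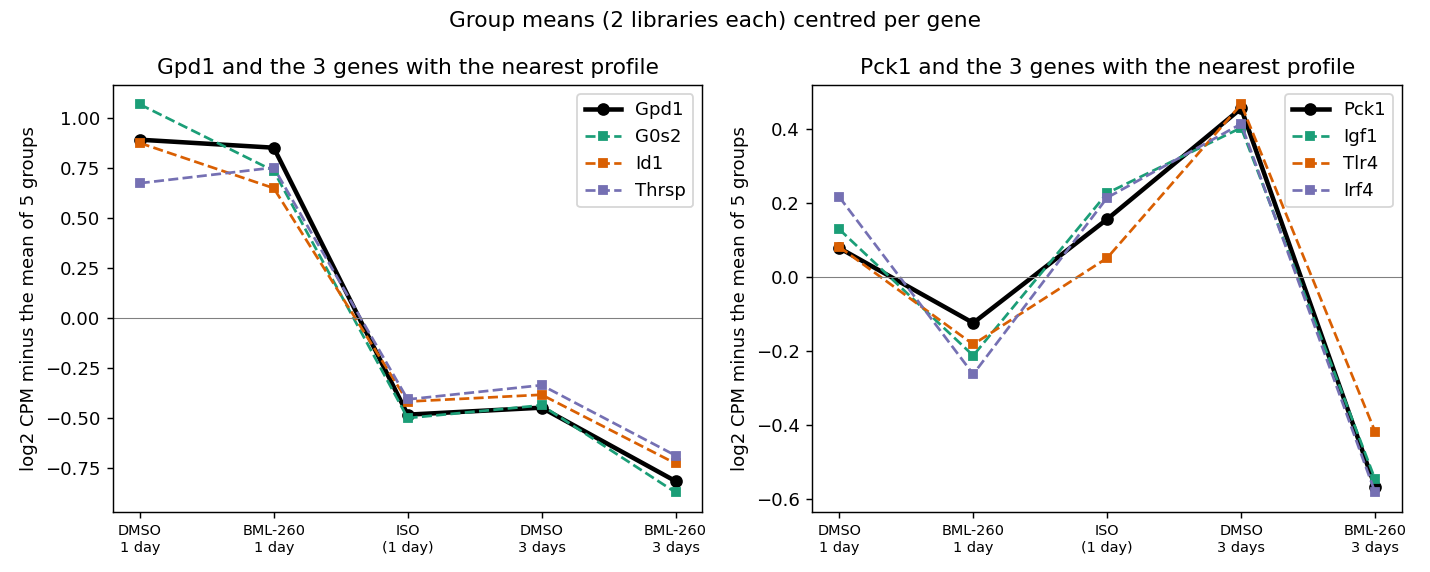
Log2 CPM of each group mean minus the mean over the 5 groups (vertical axis) for Gpd1 and Pck1 (black) and the 3 genes nearest to each (dashed). Lines join groups only to guide the eye. The Gpd1 profiles are high in DMSO and BML-260 at 1 day, and the Pck1 profiles are highest with DMSO and lowest with BML-260 at 3 days.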

How the data were processed

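Total RNA of 10 samples went into libraries by Illumina's protocols, per the labels. The submitters' processing notes name TopHat2 2.1.1, bcl2fastq 2.17.1.14, DESeq2 and bedtools, and the builds mm9 and mm10 without a role. How reads were counted, with which annotation and strand setting, is not stated. The authors deposited raw counts per gene symbol for all genes, and lists of genes past a threshold with a log2 fold change and an adjusted p-value. Members, gene lists and naming rules were chosen with earlier results of these data known. Named are the 10 members, every other pathway gene called for BML-260 or ISO against DMSO, and the 3 genes of nearest profile for each of 2 members.

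From the counts, edgeR 4.0.16 in R 4.3.3 was run over all 10 libraries: TMM normalization, filterByExpr (minimum count 10, minimum total 15), 1 mean per group, a quasi-likelihood test (5 residual df) and p-values adjusted over 15212 genes by Benjamini-Hochberg. The fit was tried on simulated counts with changes set in few genes of a single group, which does not show how it performs on these data. The SE is the absolute log2 fold change over the square root of F, and 95% intervals use it. Log2 CPM had a prior count of 2. The common dispersion was 0.00115. The table holds 26 date-like symbols, none of them a member. Exon lengths came from GENCODE M21. Depth was 16955918 to 21185675 counts per library. Alternatives were RLE size factors, upper-quartile scaling, no filter, DESeq2 1.42.0, only the groups compared, a replicate block and leaving out each library.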

Additional observations from a re-analysis of the deposited data

Results flagged for a closer look

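The effect of BML-260 against DMSO differed between 3 days and 1 day for 3 of the 10 genes and for 2 other genes of the pathway, by the test of the difference itself in edgeR. For Aqp7 the log2 fold change at 3 days minus that at 1 day was -0.81, for Pck1 -0.82 and for Gpd1 -0.32, each lower at 3 days. For Lpin2 it was 0.45 (adjusted p = 0.0042) and for Pgp 0.97 (adjusted p = 0.00058), each higher at 3 days. The Aqp7 call held in every setting tried. As given above, the Gpd1 call was lost by DESeq2 and without some single libraries, and the Pck1 call without DMSO 3 days replicate 2. Of the 8 adipocyte markers 6 were lower and 0 higher by the same test, and their part in these results was not tested. The 2 Pgp libraries of BML-260 at 1 day, at 26.2 and 37.2 CPM, lay farther apart than those of any other group. Groups of 2 libraries allow no check for a sample that lies apart from its group.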

How the results depend on the processing

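With the other reference for ISO left aside, 640 values of the 10 genes were recomputed: 590 kept direction and call, 29 changed call and 21 changed sign, none of these last among the 35 values called with all libraries, and 27 of the 35 kept their call throughout. Leaving out single libraries moved the genes called over all genes to 1235 to 2384 for BML-260 at 1 day and 659 to 1163 for the difference between times, where DESeq2 called 757. With DMSO at 3 days in place of 1 day, 3026 genes were called for ISO, and Gpd2 (0.21), Pck1 (-0.31), Agpat2 (0.28), Agpat3 (0.0335), Dgat1 (0.0298), Dgat2 (0.48), Pcx (0.0796), Pgp (0.48), Agpat4 (-0.00616), Agpat5 (0.0148) and Acsl1 (0.29) changed sign, all but Pck1 called against DMSO at 1 day, and the Gpd1 call was lost (-0.03). Changes of sign near 0 were Agpat3 with BML-260 at 3 days (0.0042 with RLE factors, 0.0041 with DESeq2), and in the difference between times Gpd2 (0.0125 with RLE factors, 0.0125 with DESeq2, 0.0240 with only the groups compared) and Dgat1 (0.0022 with only the groups compared). Single libraries left out gave ranges across 0 for Dgat1 at 1 day (-0.0853 to 0.0232), Agpat3, Dgat1 and Dgat2 at 3 days (-0.0382 to 0.0252, -0.0614 to 0.0046 and -0.150 to 2.31e-06), Pck1 with ISO (-0.0782 to 0.22) and the differences of Gpd2 (-0.0821 to 0.0742) and Dgat1 (-0.0798 to 0.0359). Replicate numbers of the titles did not mark pairs by any label, and same-numbered libraries deviated from their group means with correlations of -0.03 to 0.06. With the replicate number as a block 2, 6, 3, 8 and 8 members were called for BML-260 at 1 day, at 3 days, their difference, ISO and time in DMSO, the counts without it, and 9 in place of 8 for BML-260 against ISO (Dgat2 at -0.12, adjusted p = 0.043). Upper-quartile scaling moved the split of all genes called, higher to lower, from 2625 and 2782 to 2077 and 3313 for BML-260 at 3 days and from 3253 and 3086 to 2588 and 3831 for ISO, from 3288 and 3464 to 3821 and 2987 for BML-260 against ISO and from 1417 and 1311 to 1216 and 1423 for BML-260 at 1 day; RLE factors (2957 and 2518) and DESeq2 (2203 and 1700) turned the split at 3 days the other way. The upper-quartile median shift was at most 0.0516 in size. With only the groups compared the difference between times split 926 and 622 in place of 598 and 686. Pck1, with 119 to 309 counts per library, has the widest intervals of the 10, which limits its smaller changes.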

Other observations

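Ratios of levels per kilobase of exon between pairs of related enzymes are given for each library as a description. Gpd1 and Gpd2 act on glycerol-3-phosphate in opposite directions, and the other pairs share a reaction. Gpd1 to Gpd2 was 8.62 and 9.74 with DMSO and 8.13 and 8.53 with BML-260 at 1 day. It was 4.56 and 4.81 with DMSO and 3.65 and 3.19 with BML-260 at 3 days, and 4.26 and 3.65 with ISO. Agpat3 to Agpat2 was lowest with DMSO at 1 day, 0.484 and 0.502, and highest with BML-260 at 3 days, 0.764 and 0.839.

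Dgat1 to Dgat2 was 2.36 and 2.5 with DMSO and 2.77 and 2.92 with BML-260 at 1 day, 2.82 and 2.99 with DMSO and 2.93 and 3.08 with BML-260 at 3 days, and lowest with ISO, 2.11 and 2.15. Pck2, the mitochondrial phosphoenolpyruvate carboxykinase, exceeded Pck1 in every library, by 8.06 and 7.13 with DMSO at 3 days up to 17.3 and 14 with BML-260 at 3 days.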
